A study of Mus musculus with 24 samples.

Results

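Wild-type CJ9 cells, a line of mouse embryonic stem cells, were compared between day 3 and day 2 of a serum-free endoderm differentiation, the interval in which they were replated as single cells and first received Activin A. The comparison used 6 of the 24 libraries of the series, 3 at each day, chosen by their labels. At day 2 the cells had been off the feeder layer of mouse embryonic fibroblasts, and in differentiation medium without Activin A, for 2 days. At day 3 they had spent a further day in the same medium with Activin A. A knock-out of Setd3 in the same cell line, represented by 1 line, went through the same steps and gave 6 more libraries at the same days. Setd3 encodes a SET-domain methyltransferase that modifies actin, and the series asked whether it acts in endoderm differentiation. No day 3 library without Activin A was among the samples, so the effects of Activin A, of replating and of the additional day of culture cannot be told apart.

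Activin A binds the same receptors as Nodal, a ligand of the TGF-beta family that patterns the early embryo. The receptors phosphorylate SMAD2 and SMAD3, which enter the nucleus with SMAD4 and act with partners such as FOXH1 and EOMES. In the gastrulating mouse embryo, Nodal and Wnt signalling together induce the primitive streak, the structure through which epiblast cells pass on their way to mesoderm and definitive endoderm. High Nodal or Activin favours the anterior streak and endoderm, and the pathway induces its own ligand and its own inhibitors.

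The 3 day 2 libraries held 18531390 to 20114595 counts and the 3 day 3 libraries 18756912 to 22540026, with 20946 to 21159 and 20425 to 20477 genes having at least 1 count. Expression is given as CPM, the usual count scaled to library size, for each library and in the order of replicates 1, 2 and 3. CPM is not divided by gene length, so it compares a gene with itself and not with other genes. Setd3 was present at 97.1, 97.2 and 98.2 CPM at day 2 and 124, 116 and 121 CPM at day 3, against 30.9 ± 2.62 and 31.6 ± 2.15 CPM (mean ± SD, n = 3) in the knock-out at these days. The pluripotency factor Pou5f1 was at 304, 328 and 322 CPM at day 2 and 401, 422 and 435 CPM at day 3. The early streak gene T, also called Brachyury, was at 42.03, 33.3 and 17.3 CPM at day 2 and 288, 235 and 143 CPM at day 3, and was thus already detected before Activin A was added. Replicate 1 stood apart from the other day 3 libraries. Its counts differed from those of replicates 2 and 3 by a chi-square per gene of 10.9 and 14.8, against 3.81 between replicates 2 and 3. The day 2 libraries differed from each other by 4.03 to 7.63. Where leaving it out moved the fold change of a called gene named here by over 1.5 times, both values are given.

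Over 1 day in Activin A the wild-type transcriptome changed broadly. Of 17144 tested genes, 3665 rose and 3610 fell at an adjusted p under 0.05 (quasi-likelihood test of edgeR, Benjamini-Hochberg adjusted), together 42.4% of all tested genes, 21.4% in the higher and 21.1% in the lower direction. The median log2 fold change over all tested genes was 0.0046. Changes of at least 2-fold were more often falls, with 1703 genes lower (9.93%) and 665 higher (3.88%). For 9013 genes (52.6%) the 3 day 3 libraries did not overlap the 3 day 2 libraries. The split of calls depended on the scaling: with upper-quartile factors 2415 genes were called higher and 4411 lower. Without day 3 replicate 1, 3062 genes were called higher and 2969 lower, and 79.2% of the genes called with all libraries remained called in each direction.

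The falls of at least 2-fold lay mainly among genes of low abundance. Among genes with a mean below 1 CPM over both days, 19.6% were called at least 2-fold lower and 4.79% at least 2-fold higher. Of the genes called at least 2-fold, 48 had no count in any day 3 library and 7 none in any day 2 library, and their fitted fold changes depend on the prior count of the fit. Among genes above 100 CPM the shares were 1.61% and 1.24%, and calls of any size were more often higher (36.8%) than lower (15.4%). Long intergenic non-coding RNAs were at least 2-fold lower in 17.5% of 680 tested genes and at least 2-fold higher in 6.62%. Protein-coding genes were at least 2-fold lower in 10.1% of 14553 and higher in 3.85%. On the X chromosome 133 of 624 tested genes were higher and 133 lower, and over the autosomes the share called ranged from 37.4% on chromosome 17 to 45.7% on chromosome 2.

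**Figure D1:**
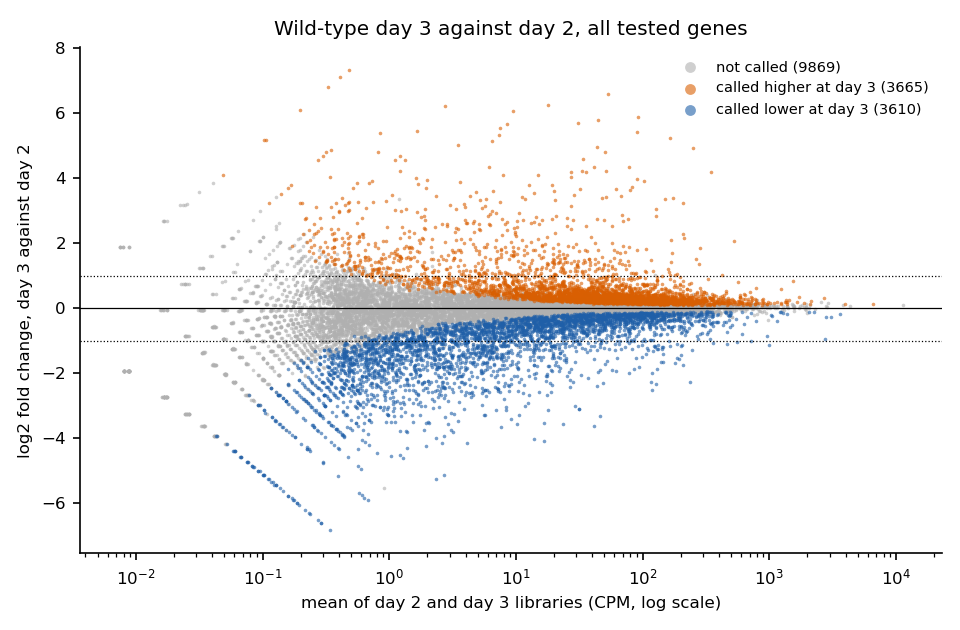
Log2 fold change between day 3 and day 2 in wild-type cells (vertical axis) against the mean CPM of both days (horizontal axis, log scale) for the 17144 tested genes, 1 point per gene. Genes called higher (3665) are orange, genes called lower (3610) blue and the others grey; the falls of at least 2-fold crowd towards low CPM. Points on straight lines at the left are genes with few or no counts on a day.

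Among genes that reached a mean of 10 CPM on either day, with no overlap between the days, the 15 largest rises included several genes known from the primitive streak. Mixl1, a homeobox factor of mesendoderm, was at 4.13, 3.004 and 1.97 CPM at day 2 and 264, 161 and 114 CPM at day 3, a log2 fold change of 5.88 ± 0.38 (adjusted p = 1.84e-09). The ± after a log2 fold change is a standard error, its size over the root of the F statistic. Gsc, the organiser gene goosecoid, was at 1.82, 2.16 and 0.725 CPM at day 2 and 134, 74.4 and 53.9 CPM at day 3 (5.79 ± 0.45, adjusted p = 2.03e-08). In both genes every day 3 library lay far above every day 2 library, and among the day 3 libraries replicate 1 was well above the others. Also among the 15 largest rises were Evx1 (6.25), Evx1os (6.08), Trim67 (5.71), Wnt11 (5.69), Foxq1 (5.55), Fgf8 (5.42), Six2 (5.33), Adamts9 (5.23), Wnt3 (4.98), Eomes (4.93), Pmepa1 (4.81) and Sp5 (4.58), all log2 fold changes. Evx1 and Evx1os overlap on opposite strands, and because no source used here gives the strand setting of the counting, their counts are uncertain.

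The largest falls among such genes were smaller in size and more mixed in kind. Dnmt3l, a cofactor of de novo DNA methylation expressed in pluripotent and germ cells, was at 20.5, 36.5 and 36.99 CPM at day 2 and 1.51, 2.08 and 1.92 CPM at day 3 (-4.09 ± 0.26, adjusted p = 5.75e-10). Ebf1, a transcription factor best known from B cells, was at 24.1, 28.4 and 26.4 CPM at day 2 and 1.37, 1.49 and 1.88 CPM at day 3 (-4.05). Crabp2, which carries retinoic acid in the cytoplasm, was at 79.5, 80.2 and 70.4 CPM at day 2 and 4.53, 6.60 and 7.24 CPM at day 3 (-3.65 ± 0.17, adjusted p = 7.60e-14). Dppa4 (-3.32), Triml2 (-3.13) and Morc1 (-3.13) are known from pluripotent or germ cells, and Sez6 (-3.12), Ttbk1 (-3.55) and Lmx1b (-3.28) from neural cells. Also among the 15 largest falls were Abcg1 (-3.57), a lipid transporter, Hsd17b14 (-3.41), Wt1 (-3.29), Btbd17 (-3.28), and Mmp3 (-3.66) and Col3a1 (-3.57), which are known from fibroblasts and are described with the feeder markers.

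In CPM, the largest gains were in Scd2, a stearoyl-CoA desaturase (1181, 1088 and 1084 CPM at day 2 and 1899.8, 2077 and 1973 CPM at day 3), Trh, the precursor of thyrotropin-releasing hormone (199.6, 236 and 178 CPM at day 2 and 727, 872 and 947 CPM at day 3), and Tdgf1, the Nodal co-receptor Cripto (38.9, 39.9 and 30.5 CPM at day 2 and 827, 624 and 531 CPM at day 3). Hspa8, Hsp90ab1, Actg1, Eomes, Hspd1, Eif4g2 and Eef2 followed, of which Hsp90ab1 (log2 fold change 0.12) and Eef2 (0.12) changed little in proportion. The largest loss was in Dnmt3b, a de novo DNA methyltransferase (3685, 3533 and 3686 CPM at day 2 and 1546, 1971 and 2120.1 CPM at day 3). G3bp2 (-1.15), Pkm (-0.27), Rian (-0.85), Ptma (-0.26), Meg3 (-1.02), Hsp90aa1 (-0.19), Iqgap1 (-1.06), Phc1 (-1.12) and Fth1 (-0.81) followed. With upper-quartile scaling Hsp90ab1 and Eef2 were not called.

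Several ligands, co-receptors and inhibitors of the Nodal and Activin pathway rose. Of 18 tested ligands, co-receptors, antagonists and processing enzymes, 7 rose and 3 fell, with a median log2 fold change of 0.39. Nodal went from 14.5, 14.1 and 7.15 CPM to 144, 148 and 152 CPM (3.63 ± 0.16, adjusted p = 2.58e-12), the 3 day 3 libraries lying close together. Tdgf1 rose by 4.18 ± 0.20 (adjusted p = 2.97e-11). Lefty1 and Lefty2, secreted inhibitors that Nodal signalling induces, were at 7.29, 6.22 and 2.23 CPM at day 2 and 134, 89.5 and 70.9 CPM at day 3, and at 3.12, 4.005 and 1.40 CPM at day 2 and 62.5, 50.6 and 41.6 CPM at day 3. Their log2 fold changes were 4.22 and 4.18, and in both, replicate 1 was the highest and replicate 3 the lowest day 3 library. Cer1, an antagonist of Nodal, BMP and Wnt secreted by anterior endoderm, had the widest spread, at 11.4, 10.01 and 4.92 CPM at day 2 and 182, 67.8 and 31.1 CPM at day 3 (3.41 ± 0.63, adjusted p = 7.95e-04), and without replicate 1 a log2 fold change of 2.48 (adjusted p = 0.00214).

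Follistatin binds and neutralises Activin, and its gene Fst was at 34.98, 31.99 and 22.4 CPM at day 2 and 349, 319 and 278 CPM at day 3 (3.40 ± 0.35, adjusted p = 7.85e-07). The convertase gene Furin rose slightly (0.35 ± 0.10). The members that fell were Gdf3, a Nodal-related ligand of pluripotent cells, at 27.2, 28.98 and 32.5 CPM at day 2 and 5.71, 8.89 and 9.25 CPM at day 3 (-1.89 ± 0.17), Gdf11 (-1.20 ± 0.27) and Tgfb2 (-1.30 ± 0.39). Those 3 are also ligands of the TGF-beta family. Cfc1, the other co-receptor of Nodal, was low and not called (1.44, 1.58 and 0.725 CPM at day 2 and 6.23, 2.24 and 0.849 CPM at day 3).

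Of 21 tested receptors, SMADs and regulators, 8 rose and 3 fell (median 0.11). Pmepa1 and Ldlrad4 encode membrane proteins that sequester receptor-activated SMADs, and Smad7 encodes the inhibitory SMAD that targets the receptors. Pmepa1 was at 4.61, 3.06 and 2.64 CPM at day 2 and 98.7, 97.3 and 96.1 CPM at day 3 (4.81 ± 0.23, adjusted p = 1.05e-11). Smad7 was at 5.85, 4.74 and 3.47 CPM at day 2 and 47.3, 51.4 and 59.96 CPM at day 3 (3.49 ± 0.15, adjusted p = 2.43e-13), and Ldlrad4 rose by 1.87 ± 0.29. For Pmepa1 and Smad7 the day 3 libraries lay within a narrow range, whereas those of Cer1 did not. Tgfbr3, the accessory receptor betaglycan, was at 13.3, 11.5 and 8.55 CPM at day 2 and 126, 133 and 110.2 CPM at day 3 (3.47 ± 0.37, adjusted p = 9.50e-07).

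Among signalling receptors, Tgfbr1 (0.38 ± 0.07) and Acvr2a (0.47 ± 0.07) rose slightly and Tgfbr2, the TGF-beta type II receptor, fell (-1.07 ± 0.32) from a low level (9.74, 9.12 and 7.93 CPM at day 2 and 4.91, 3.62 and 4.15 CPM at day 3). Acvr1b (-0.05 ± 0.10) and Acvr2b (-0.12 ± 0.09), the main Activin and Nodal receptors, were not called. Smad2 was at 76.9, 78.1 and 80.2 CPM at day 2 and 75.2, 73.8 and 76.4 CPM at day 3 (-0.06 ± 0.05), and neither it nor Smad3 (0.13 ± 0.10) nor Smad4 (0.09 ± 0.05) was called. The SMAD partner Foxh1 rose slightly (0.19 ± 0.06), and the repressor Tgif1 (-0.37 ± 0.05) and the regulator Trim33 (-0.53 ± 0.04) fell.

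**Figure D2:**
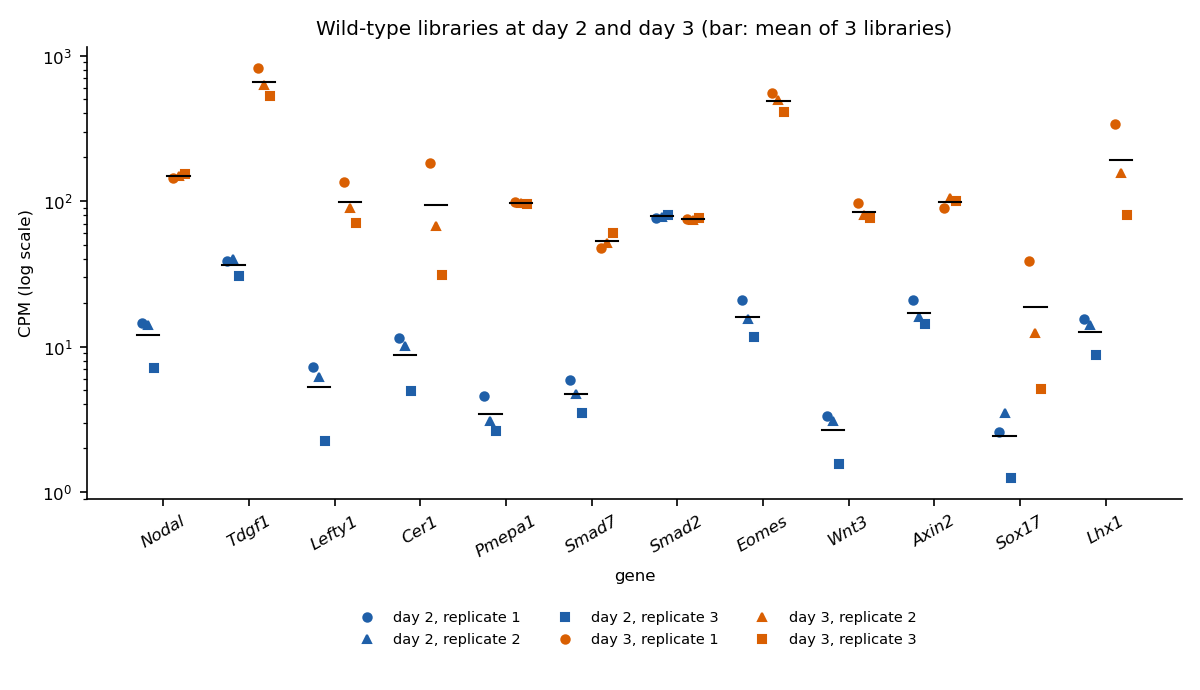
CPM (vertical axis, log scale) of 12 genes in each wild-type library at day 2 and day 3, 1 point per library, with a bar at the mean of the 3 libraries. Nodal, Pmepa1, Smad7 and Axin2 have day 3 libraries close together, Cer1, Sox17 and Lhx1 have replicate 1 far above replicates 2 and 3, and Smad2 lies between 73.8 and 80.2 CPM in all 6 libraries.

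Most genes of the anterior streak rose. Of 18 tested members 13 rose and 2 fell, with a median log2 fold change of 2.81 beside 0.0046 over all tested genes, and the counts were 13 and 3 without day 3 replicate 1. Eomes, the T-box factor required for endoderm, was at 20.8, 15.4 and 11.6 CPM at day 2 and 552, 492 and 412 CPM at day 3 (4.93 ± 0.24, adjusted p = 5.87e-11). Foxa2, a forkhead factor of endoderm and node, was at 10.2, 8.17 and 3.58 CPM at day 2 and 177, 152 and 118 CPM at day 3 (4.34 ± 0.29, adjusted p = 1.89e-09). Lhx1, a LIM homeobox factor of the anterior streak, was at 15.4, 13.96 and 8.76 CPM at day 2 and 340.3, 156 and 80.3 CPM at day 3 (3.92 ± 0.49), and without replicate 1 at 3.21 (adjusted p = 1.41e-05). Every day 3 library of these genes lay above every day 2 library. The members not called included Otx2, expressed in epiblast before gastrulation (-0.04 ± 0.13), and Fzd5 (0.00 ± 0.14).

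Of 19 tested posterior streak genes, 11 rose and 4 fell (median 2.60). Without replicate 1 these counts were 11 and 2. Fgf8, a growth factor of the streak, was at 6.05, 3.95 and 2.28 CPM at day 2 and 195, 174 and 162 CPM at day 3 (5.42 ± 0.28, adjusted p = 6.86e-11), and Wnt3, the ligand that initiates the streak, at 3.36, 3.06 and 1.55 CPM at day 2 and 96.7, 79.8 and 75.9 CPM at day 3 (4.98 ± 0.20, adjusted p = 3.16e-14). T rose by 2.84 ± 0.37 (adjusted p = 9.25e-06), and without replicate 1 by 2.61 (adjusted p = 6.34e-05). The day 2 libraries of T already differed by over a factor of 2, replicate 3 being the lowest on both days. Fgf4, a ligand of pluripotent cells that also sits in this list, fell, at 65.5, 74.1 and 81.9 CPM at day 2 and 9.20, 14.4 and 18.5 CPM at day 3 (-2.39 ± 0.20).

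Most called definitive endoderm markers rose. Of 23 tested members 12 rose and 3 fell (median 0.86), several of the risers being streak genes shared with the lists above. Without replicate 1 the counts were 11 and 2 of the 24 then tested and the median 0.45, and 1 or 2 fell when any 1 library was left out. Sox17, a defining endoderm factor, was at 2.59, 3.48 and 1.24 CPM at day 2 and 38.8, 12.4 and 5.14 CPM at day 3 (2.94 ± 0.60, adjusted p = 8.43e-04), and reached 217 ± 11.2 CPM (mean ± SD, n = 3) at day 4. Gata6, an endoderm factor, was at 2.06, 1.79 and 1.24 CPM at day 2 and 46.7, 16.3 and 7.37 CPM at day 3 (3.78 ± 0.63, adjusted p = 1.20e-04), and 199.7 ± 32.7 CPM at day 4. Cxcr4, a chemokine receptor used to mark endoderm and mesoderm, was at 3.17, 3.11 and 2.59 CPM at day 2 and 21.4, 6.92 and 4.15 CPM at day 3 (1.87 ± 0.51, adjusted p = 0.00739). In these 3 genes replicate 1 was several times replicate 3. Sox17 and Cxcr4 were not called when only the wild-type libraries of day 2 and day 3 were fitted. Without replicate 1 the log2 fold changes were 1.82 (adjusted p = 0.00455) for Sox17, 2.77 (adjusted p = 2.90e-04) for Gata6 and 0.89 (adjusted p = 0.0957) for Cxcr4. Epcam, an epithelial adhesion molecule kept in endoderm, fell slightly (-0.20 ± 0.07, and -0.18 (adjusted p = 0.108) without replicate 1), and Cpm, a carboxypeptidase, fell by 0.95 ± 0.21.

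Mesoderm and axial genes showed a partial response. Of 20 tested mesoderm genes 9 rose and 4 fell (median 0.58), and 8 and 2 without replicate 1, with a median of -0.17. Cdh11, a mesenchymal cadherin, was at 4.51, 4.37 and 2.90 CPM at day 2 and 116, 66.3 and 55.5 CPM at day 3 (4.33 ± 0.42, adjusted p = 3.45e-07), Pcdh8, a protocadherin of paraxial mesoderm, at 1.82, 1.32 and 1.76 CPM at day 2 and 30.8, 27.6 and 26.3 CPM at day 3 (4.10 ± 0.23), and Pdgfra, a growth factor receptor of mesoderm and primitive endoderm, at 3.79, 3.79 and 3.32 CPM at day 2 and 39.7, 16.4 and 11.7 CPM at day 3 (2.63 ± 0.49, and 1.94 (adjusted p = 0.00225) without replicate 1). Mesp1, a defining gene of nascent mesoderm, was at 0.192, 0.422 and 0.104 CPM at day 2 and 4.48, 1.06 and 0.402 CPM at day 3 (3.04 ± 0.80, adjusted p = 0.00652), and without replicate 1 the log2 fold change was 1.57 (adjusted p = 0.0383). Tbx6 was at 1.30, 1.26 and 0.933 CPM at day 2 and 0.283, 0.852 and 0.715 CPM at day 3 (-0.92 ± 0.32, adjusted p = 0.0245) and fell, though without replicate 1 it was not called, at -0.58 (adjusted p = 0.169). Of 12 axial mesoderm genes 7 rose and 5 fell, the rises being led by Foxa2, Nodal, Cer1 and T. Without replicate 1 the counts were 5 and 5.

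Few of the called genes with at least 50 CPM at day 3 differed widely between the day 3 libraries. Genes below that level, such as Sox17, Gata6 and Cxcr4, and genes not called were left out of this count. Among 2373 called genes averaging at least 50 CPM at day 3, clone-named genes left out, the highest library exceeded the lowest by a median factor of 1.10. In 13 genes the factor was at least 2, and replicate 1 was the highest in 11 of them and replicate 3 in the other 2. The 5 genes with the widest spread were Cer1 (factor 5.86), Lhx1 (4.24), Upp1, a uridine phosphorylase (3.31), Ntn1, a netrin (2.83), and Cdh2, N-cadherin (2.53). All 5 were highest in replicate 1 and lowest in replicate 3, and all 5 were higher at day 3 than at day 2 in every library. Without replicate 1 the log2 fold change of Upp1 was 2.16 (adjusted p = 6.70e-05), against 2.76 with all libraries.

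**Figure D3:**
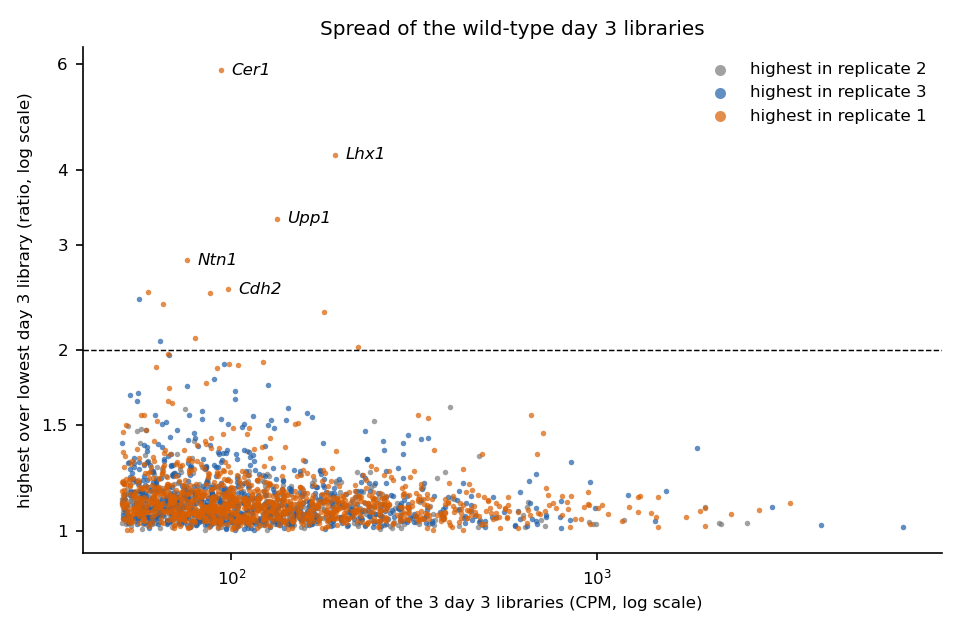
Ratio of the highest to the lowest day 3 library (vertical axis, log scale) against the mean day 3 CPM (horizontal axis, log scale) for the 2373 called genes with at least 50 CPM at day 3, coloured by the library in which the gene was highest. Of the 13 genes at a ratio of at least 2 (dashed line), 11 were highest in replicate 1.

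Several Wnt ligands, receptors and targets rose, beside others that fell or were not called. Of 22 tested Wnt ligands and genes for their secretion, 9 rose and 5 fell (median 0.86). Without day 3 replicate 1, 8 of the 23 then tested rose and 6 fell, and the median was -0.40. Beside Wnt3, Wnt8a was at 10.7, 9.64 and 4.46 CPM at day 2 and 84.2, 95.4 and 83.4 CPM at day 3 (3.40 ± 0.31, adjusted p = 8.26e-08), Wnt11, a ligand known mostly for non-canonical signalling, at 0.672, 0.263 and 0 CPM at day 2 and 20.05, 16.7 and 13.6 CPM at day 3 (5.69 ± 0.33, adjusted p = 1.85e-12), and Porcn, the acyltransferase that Wnt secretion needs, at 2.11, 3.004 and 2.02 CPM at day 2 and 9.43, 9.37 and 9.29 CPM at day 3 (1.98 ± 0.17). All day 3 libraries of these 4 genes lay above all day 2 libraries. Wnt5a was not called (-0.69 ± 0.34), and Rspo1, an R-spondin that amplifies Wnt signals, fell (-0.64 ± 0.16).

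Of 21 tested receptors 10 rose and 4 fell (median 0.17), but 6 and 4 with upper-quartile scaling. Fzd10 was at 3.36, 3.37 and 2.54 CPM at day 2 and 58.6, 50.4 and 44.1 CPM at day 3 (4.04 ± 0.16, adjusted p = 1.20e-15). Fzd7, the Frizzled receptor typical of stem cells, went the other way, at 371, 343 and 364 CPM at day 2 and 177, 187 and 199 CPM at day 3 (-0.94 ± 0.05, adjusted p = 1.85e-12). Lgr5 (1.55 ± 0.37) and Lgr4 (1.13 ± 0.06), receptors of R-spondins, and Ror2 (1.29 ± 0.16), a receptor of Wnt5a, rose, and Ror1 fell (-1.02 ± 0.11). The 22 tested intracellular components moved little, with 3 called higher and 5 lower, but 7 and 2 without day 3 replicate 1. Tle4, a corepressor of TCF factors, fell by 1.25 ± 0.07, and Lef1 fell by 0.57 ± 0.14. Apc (-0.05 ± 0.06) and Gsk3b (0.13 ± 0.07), parts of the complex that degrades beta-catenin, were not called.

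Canonical Wnt targets rose in 12 of 21 tested genes and fell in 6 (median 0.30). Sp5, a zinc finger factor that Wnt signalling induces directly, was at 4.65, 2.16 and 1.19 CPM at day 2 and 95.3, 59.7 and 39.9 CPM at day 3 (4.58 ± 0.45, adjusted p = 3.63e-07), Sp8 at 4.89, 3.90 and 2.54 CPM at day 2 and 20.99, 25.6 and 25.3 CPM at day 3 (2.66 ± 0.27), and Myc, the proto-oncogene, at 11.3, 11.01 and 8.96 CPM at day 2 and 65.6, 59.6 and 56.3 CPM at day 3 (2.54 ± 0.12, adjusted p = 3.16e-14). Axin2, the negative feedback gene of the pathway, named here after its values were seen, was at 20.9, 16.02 and 14.4 CPM at day 2 and 90.2, 105 and 99.7 CPM at day 3 (2.52 ± 0.18, adjusted p = 1.28e-09), and its 3 day 3 libraries lay within a narrow range. Lef1, Nkd2 (-0.90 ± 0.18) and Fzd7, which are often listed as targets too, fell. Among 18 tested secreted antagonists 5 rose and 5 fell, the latter count being 1 to 4 when any 1 library was left out. Beside Cer1, the risers were led by Shisa3 (3.37 ± 0.29), Frzb, at 3.74, 4.95 and 2.38 CPM at day 2 and 68.1, 25.1 and 18.9 CPM at day 3 (3.34 ± 0.48, and 2.57 (adjusted p = 4.29e-05) without replicate 1), and Dkk1, at 4.51, 3.58 and 1.92 CPM at day 2 and 30.1, 13.3 and 5.58 CPM at day 3 (2.28 ± 0.50, and 1.47 (adjusted p = 0.0123) without replicate 1). Sfrp1, a soluble Frizzled-related protein, fell, at 54.02, 50.7 and 44.1 CPM at day 2 and 44.01, 26.7 and 20.998 CPM at day 3 (-0.70 ± 0.26), but its call ended in 4 of the 6 fits that left out 1 library.

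The 250 bases before the transcription start, from RefSeq promoters on GRCm38.p6, were searched for short motifs of the factors that these pathways use. Windows were found for 10 of the 15 genes with the largest rise and 8 of the 15 with the largest fall. CTTTGAT, the core letters bound by TCF and LEF factors, occurred on either strand in 2 of the 10 rising genes, Sp5 and Wnt11, and in 3.72% of all 27025 genes with a window. CTTTGTT, a variant that SOX factors also bind, occurred in 1, Sp5, against 5.77%. GGCGCC, a GC-rich SMAD element that reads the same on both strands, occurred in 3, Adamts9, Trim67 and Wnt11, against 10.8%. AATNCACA of FOXH1 (3.73% of all genes), GTCTAGAC, the palindromic SMAD element (0.2%), TCACACCT of T-box factors (1.3%) and TGACGTCA of CREB and ATF factors (1.77%) occurred in 0 of the 10, and none of the 7 motifs occurred in the 8 falling genes. The windows of Sp5 (chr2:70474673-70474922, plus strand) and Wnt11 (chr7:98834862-98835111, plus strand) are shown because they held the TCF letters. Capitals mark the matches to any of the 7 motifs, which on the reverse strand read ATCAAAG or AACAAAG.
Sp5: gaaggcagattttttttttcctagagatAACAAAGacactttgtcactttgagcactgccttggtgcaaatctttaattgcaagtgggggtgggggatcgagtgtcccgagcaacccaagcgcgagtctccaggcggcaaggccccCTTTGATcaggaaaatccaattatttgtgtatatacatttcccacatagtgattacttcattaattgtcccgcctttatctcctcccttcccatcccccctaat
Wnt11: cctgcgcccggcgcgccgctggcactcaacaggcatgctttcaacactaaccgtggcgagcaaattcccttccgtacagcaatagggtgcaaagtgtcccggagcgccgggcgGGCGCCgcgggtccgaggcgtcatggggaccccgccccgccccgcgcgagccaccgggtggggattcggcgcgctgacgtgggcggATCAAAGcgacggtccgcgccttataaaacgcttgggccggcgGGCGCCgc
In Sp5 the capitals are AACAAAG and CTTTGAT, and in Wnt11 they are GGCGCC near the middle and near the end of the stretch and ATCAAAG between them. Matches of this length are a description of the letters and not evidence of binding.

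BMP and FGF genes changed in selected members. Of 27 tested BMP ligands, receptors and antagonists 11 rose and 6 fell (median 0.24). Bmp7 was at 8.83, 9.38 and 7.20 CPM at day 2 and 56.5, 49.3 and 32.97 CPM at day 3 (2.45 ± 0.27, adjusted p = 8.29e-07), Bmp2 at 2.69, 2.63 and 2.64 CPM at day 2 and 15.99, 11.3 and 6.52 CPM at day 3 (2.08 ± 0.38), and Chrd, the organiser antagonist chordin, at 12.6, 9.01 and 6.84 CPM at day 2 and 31.1, 34.8 and 24.3 CPM at day 3 (1.66 ± 0.27). Bmp4, the ligand of the posterior streak and extraembryonic ectoderm, fell from a low level (3.26, 4.005 and 3.06 CPM at day 2 and 1.70, 2.02 and 2.06 CPM at day 3, -0.83 ± 0.24), and the BMP antagonist Grem1 fell by 2.01 ± 0.48. Of 16 BMP targets 6 rose and 1 fell. Msx1 (2.59 ± 0.33), Smad6 (1.68 ± 0.19) and Tfap2c (2.60 ± 0.35) rose, whereas Id3, among the most direct BMP targets, fell, at 70.8, 81.9 and 72.6 CPM at day 2 and 50.2, 36.8 and 33.6 CPM at day 3 (-0.90 ± 0.21), and Id1 was not called (-0.17 ± 0.31).

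Of 21 tested FGF ligands and receptors 8 rose and 5 fell. The ligand set turned over: Fgf8 rose as given above, Fgf17 was at 0.384, 0.580 and 0.777 CPM at day 2 and 14.8, 11.7 and 8.67 CPM at day 3 (4.33 ± 0.30) and Fgf5, a marker of primed epiblast, at 150.2, 131 and 133 CPM at day 2 and 433, 385 and 361 CPM at day 3 (1.51 ± 0.07, adjusted p = 1.31e-13), while Fgf4 fell. The receptor Fgfr1 was not called (-0.20 ± 0.11) and Fgfr2 fell (-0.78 ± 0.10). Among 20 genes of ERK feedback 8 rose and 8 fell. Il17rd, the inhibitor Sef, was at 85.1, 76.99 and 71.6 CPM at day 2 and 339, 370.0 and 337 CPM at day 3 (2.16 ± 0.07, adjusted p = 3.94e-17), and Dusp4, a phosphatase that acts on ERK, was at 196, 198 and 216 CPM at day 2 and 33.1, 38.1 and 35.3 CPM at day 3 (-2.52 ± 0.11, adjusted p = 4.92e-13). Spry2 (0.19 ± 0.11) and Etv4 (0.18 ± 0.09) were not called, and Spry4 fell (-0.70 ± 0.08). The median over the ERK feedback list was 0.11.

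Most of the called naive pluripotency genes fell. Of 24 tested members 14 fell, 1 rose and 9 were not called, with a median log2 fold change of -1.40. Klf2 was at 11.5, 15.5 and 17.5 CPM at day 2 and 1.32, 2.24 and 1.88 CPM at day 3 (-3.04 ± 0.22), Esrrb at 7.24, 13.1 and 16.5 CPM at day 2 and 1.56, 2.45 and 2.19 CPM at day 3 (-2.57 ± 0.32), Zfp42, also called Rex1, at 21.3, 34.2 and 39.2 CPM at day 2 and 8.21, 11.7 and 8.44 CPM at day 3 (-1.75 ± 0.19), and Dppa3 at 3.21, 7.22 and 7.36 CPM at day 2 and 0.236, 0.799 and 0.804 CPM at day 3 (-3.26 ± 0.40). Klf2, Esrrb and Dppa3 had already dropped between day 0 and day 2, from 404 ± 55.9, 627 ± 51.5 and 15.2 ± 3.61 CPM (mean ± SD, n = 3). The member that rose was Nanog, a homeobox factor of naive cells that is also expressed in the posterior epiblast. It stood at 444 ± 7.15 CPM at day 0, went from 40.9, 41.8 and 36.7 CPM at day 2 to 367, 372 and 399 CPM at day 3 (3.25 ± 0.10, adjusted p = 7.40e-16), and was at 111 ± 21.9 CPM at day 4. Receptor genes of the LIF pathway were not called, Lifr at 23.03, 26.9 and 30.1 CPM at day 2 and 31.5, 27.4 and 21.6 CPM at day 3 and Il6st with a log2 fold change of 0.00 ± 0.10.

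Of 19 core pluripotency genes 12 fell and 4 rose, the risers including Tdgf1, Nanog and Pou5f1 (0.40 ± 0.13). Utf1 was at 268, 259.8 and 299 CPM at day 2 and 65.05, 98.5 and 123.3 CPM at day 3 (-1.53 ± 0.19), and Dppa2 (-2.44 ± 0.15) and Dppa4 fell steeply. Formative and primed epiblast genes split, with 6 higher and 12 lower of 25 tested (median -0.22). Fgf5 and Cdh2 (1.49 ± 0.27) rose. Pou3f1, also called Oct6, was at 196, 176 and 208 CPM at day 2 and 29.7, 40.5 and 48.97 CPM at day 3 (-2.28 ± 0.21, adjusted p = 1.87e-07), Sall2 at 296, 273 and 302 CPM at day 2 and 75.9, 103 and 114 CPM at day 3 (-1.57 ± 0.14), and Sox3, a factor shared with neural progenitors, at 63.2, 52.1 and 69.3 CPM at day 2 and 16.4, 22.05 and 23.5 CPM at day 3 (-1.58 ± 0.17). In these 3 genes every day 3 library lay below every day 2 library. All 3 had been induced between day 0 and day 2, from 22.1 ± 6.30, 14.8 ± 3.55 and 4.82 ± 0.734 CPM.

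Of 23 tested neuroectoderm genes 7 fell and 5 rose (median -0.34), of which 6 fell and 4 rose by at least 2-fold. The log2 fold changes of the tested members ran from -4.24 to 4.81. Values of Sox1, Zic1 and Hesx1, the other markers set for this lineage, are not given here. Pax6, a defining neural factor, was at 4.37, 3.79 and 3.06 CPM at day 2 and 0.189, 0.266 and 0.134 CPM at day 3 (-4.24 ± 0.41, adjusted p = 1.29e-08), and Map2, a neuronal microtubule protein, fell by 1.10 ± 0.13. Dcx, doublecortin, rose from a low level (1.06, 0.738 and 0.363 CPM at day 2 and 8.49, 7.30 and 8.13 CPM at day 3, 3.45 ± 0.33), and Nes, the intermediate filament nestin, was at 168, 159 and 149.6 CPM at day 2 and 248, 268 and 256 CPM at day 3 (0.70 ± 0.17).

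Most germline genes fell. Of 33 tested members 23 fell and 4 rose, with a median log2 fold change of -1.56. Most were low already at day 2. Ddx4 was at 16.8, 22.6 and 20.4 CPM at day 2 and 5.90, 9.16 and 7.95 CPM at day 3 (-1.38 ± 0.17), Dazl at 2.21, 4.16 and 3.11 CPM at day 2 and 0.330, 0.692 and 0.179 CPM at day 3 (-3.003 ± 0.36) and Piwil2, which acts in the piRNA pathway, at 5.13, 6.27 and 5.13 CPM at day 2 and 0.236, 0.905 and 0.625 CPM at day 3 (-3.24 ± 0.30). Mael (-2.48 ± 0.29), Mov10l1 (-2.10 ± 0.26), Tdrd1 (-1.76 ± 0.16) and Rnf17 (-1.31 ± 0.13) of the same pathway also fell, as did the meiotic genes Stag3 (-1.14 ± 0.14), Sycp2 (-2.10 ± 0.36), Hormad1 (-2.69 ± 0.42) and Tex11 (-2.30 ± 0.24). The 4 that rose were Tfap2c (2.60 ± 0.35) and Prdm1 (1.17 ± 0.27), which specify primordial germ cells but are also expressed elsewhere, Nanos3 (1.49 ± 0.50) and Tdrd5 (0.85 ± 0.14). Xlr3a and Xlr4a belong to families of close copies, and their counts are uncertain.

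Genes of DNA methylation and demethylation mostly fell where they were called. Of 19 tested members 8 fell and 1 rose, the largest falls being Gadd45g (-4.15 ± 0.27), a stress gene linked to demethylation, Dnmt3l, Dnmt3b (-0.95 ± 0.11, adjusted p = 1.93e-06) and Gadd45a (-0.85 ± 0.13). Dnmt3b had stood at 528 ± 113 CPM at day 0. Among 30 Polycomb genes 9 rose and 8 fell, and 6 and 12 with upper-quartile scaling. Rbbp7, a histone chaperone shared by several complexes, was at 279, 289.7 and 267 CPM at day 2 and 617, 552 and 541 CPM at day 3 (1.03 ± 0.05) and Phc2 at 39.5, 37.3 and 30.9 CPM at day 2 and 102, 95.4 and 82.1 CPM at day 3 (1.38 ± 0.12), while Phc1 was at 665, 589.9 and 661 CPM at day 2 and 237, 315 and 332 CPM at day 3 (-1.12 ± 0.13) and Cbx7 at 182, 179 and 186 CPM at day 2 and 60.5, 92.9 and 95.7 CPM at day 3 (-1.13 ± 0.12). The paralogues Phc1 and Phc2 thus moved in opposite directions in every library. The catalytic subunits Ezh2 (0.04 ± 0.06) and Rnf2 (0.00 ± 0.06) were not called.

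Of 44 genes of chromatin remodelling 11 rose and 10 fell, with 8 and 17 under upper-quartile scaling, and Hmga2, a chromatin protein of embryonic cells, was at 45.96, 39.5 and 37.05 CPM at day 2 and 132, 112 and 89.3 CPM at day 3 (1.45 ± 0.28). Smyd2, a lysine methyltransferase of the list that holds Setd3, was at 13.2, 11.4 and 11.1 CPM at day 2 and 37.8, 30.8 and 26.8 CPM at day 3 (1.42 ± 0.10). Setd3 itself rose by 0.30 ± 0.06 (adjusted p = 2.55e-04). Among 27 imprinted genes 15 fell and 5 rose (median -0.68). H19 was at 50.04, 66.2 and 52.2 CPM at day 2 and 7.55, 6.66 and 5.50 CPM at day 3 (-3.10 ± 0.49), and Peg10 (-1.18 ± 0.19), Rtl1 (-1.18 ± 0.13), Meg3 and Rian fell as well. Peg3 rose slightly (0.38 ± 0.09), and Asb4, from a low level, by 1.57 ± 0.28. These members lie in different imprinted clusters, but Meg3, Rian and Rtl1 share 1 of them.

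**Figure D4:**
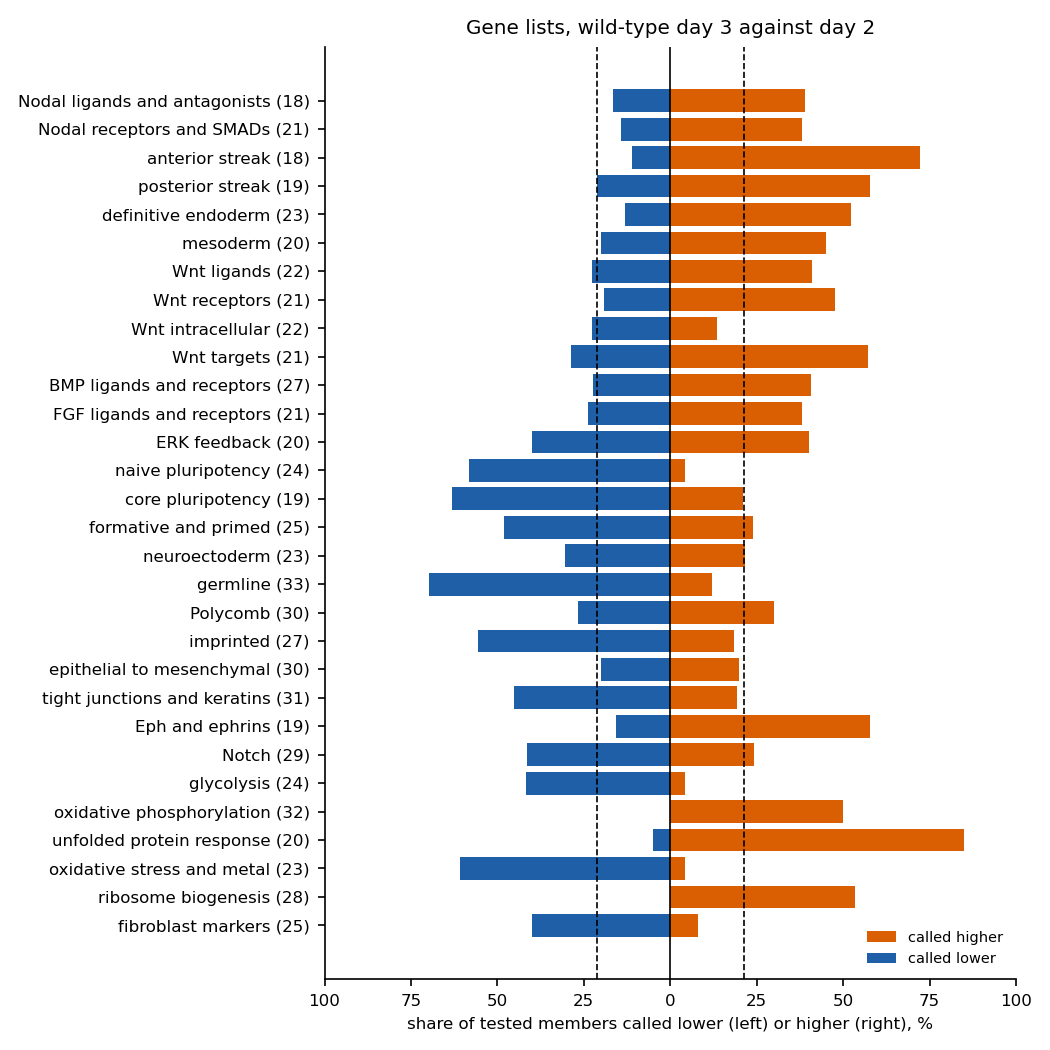
Share of the tested members of 30 gene lists that were called higher (orange, to the right) and lower (blue, to the left) at day 3 against day 2, in percent of the tested members, with the number tested after each name. Dashed lines mark the shares over all 17144 tested genes, 21.4% higher and 21.1% lower. The anterior streak list reaches furthest to the right but for the unfolded protein response, and the germline list furthest to the left.

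N-cadherin rose while E-cadherin and several claudins fell. Of 30 genes of epithelial to mesenchymal transition 6 rose and 6 fell (median 0.05, and -0.04 with upper-quartile scaling), and 3 or 4 fell when any 1 of the 6 libraries was left out. The share called, 40.0%, was below the 42.4% of all tested genes. Cdh2 was at 38.8, 34.1 and 31.7 CPM at day 2 and 151, 82.4 and 59.9 CPM at day 3 (1.49 ± 0.27, adjusted p = 2.86e-04), Snai1, a repressor of E-cadherin, at 4.99, 3.79 and 3.21 CPM at day 2 and 16.2, 15.8 and 12.7 CPM at day 3 (1.89 ± 0.23), and Mmp14, a membrane-bound protease, at 39.96, 31.5 and 29.999 CPM at day 2 and 90.8, 80.9 and 69.7 CPM at day 3 (1.25 ± 0.23). Cdh1, E-cadherin, was at 1154, 1119 and 1168 CPM at day 2 and 852, 1002 and 1025 CPM at day 3 (-0.26 ± 0.06, adjusted p = 0.00154), so that it was lower by less than a factor of 1.5. Without replicate 1, Cdh2 differed by 1.03 (adjusted p = 0.00114). Of 31 genes of tight junctions, desmosomes and keratins 14 fell and 6 rose (median -0.22). Cldn4 was at 39.1, 42.6 and 43.8 CPM at day 2 and 8.49, 11.6 and 12.3 CPM at day 3 (-1.95 ± 0.24), Cldn3 at 17.1, 15.6 and 14.7 CPM at day 2 and 3.40, 4.42 and 7.19 CPM at day 3 (-1.65 ± 0.22) and Tjp3 at 27.7, 27.9 and 37.2 CPM at day 2 and 10.4, 12.5 and 15.4 CPM at day 3 (-1.27 ± 0.23), whereas Dsp, desmoplakin, was at 32.7, 29.7 and 23.9 CPM at day 2 and 107, 98.9 and 82.6 CPM at day 3 (1.74 ± 0.24) and Tjp1 was not called (0.03 ± 0.06).

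Of 31 basement membrane and matrix genes 6 rose and 7 fell, and 4 fell without day 3 replicate 1, day 2 replicate 1 or day 2 replicate 3. The laminin chains moved apart: Lama5 was at 182, 123.3 and 162 CPM at day 2 and 283, 456 and 452 CPM at day 3 (1.35 ± 0.21) and Lamb1 rose by 0.89 ± 0.10, while Lama1 was at 18.04, 13.9 and 17.2 CPM at day 2 and 3.16, 4.85 and 3.48 CPM at day 3 (-2.11 ± 0.18). Versican, Vcan, fell by 1.14 ± 0.09, and fibronectin, Fn1, was not called (-0.15 ± 0.28). Among 15 integrins 7 rose and 3 fell. Itga8 was at 2.88, 2.002 and 2.02 CPM at day 2 and 24.1, 11.8 and 7.997 CPM at day 3 (2.66 ± 0.40) and Itgb5 rose by 1.08 ± 0.11, while Itga6, the laminin receptor of epithelial and stem cells, was at 269, 284 and 286 CPM at day 2 and 121, 131 and 133 CPM at day 3 (-1.13 ± 0.06). Eph receptors and ephrins rose in 11 of 19 tested genes and fell in 3 (median 0.55). Epha2 was at 30.5, 26.6 and 25.1 CPM at day 2 and 213, 247 and 229 CPM at day 3 (3.07 ± 0.15, adjusted p = 8.06e-12), and Efna3 (1.64 ± 0.23) and Efnb1 (1.76 ± 0.24) rose, while Ephb1 fell (-1.93 ± 0.19). Of 44 semaphorins, plexins, slits, netrins and their receptors 11 rose and 12 fell, 7 rising without day 2 replicate 2 or day 3 replicate 1, with Plxna2 (2.76 ± 0.28) and Ntn1, at 12.5, 12.2 and 8.96 CPM at day 2 and 115, 70.9 and 40.7 CPM at day 3 (2.75 ± 0.32), the largest rises.

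Of 28 tested genes of actin and of serum response factor 10 rose and 2 fell, by small amounts (median 0.15). The share called, 42.9%, was near the 42.4% of all tested genes. With upper-quartile scaling 7 rose and 2 fell. Actg1, cytoplasmic gamma actin, was at 989, 1070.2 and 913 CPM at day 2 and 1488, 1474 and 1465 CPM at day 3 (0.57 ± 0.05, adjusted p = 4.53e-09), whereas Actb, beta actin, was at 2084, 2037 and 2013 CPM at day 2 and 2089, 1999 and 2031 CPM at day 3 and was not called (0.00 ± 0.06). Tropomyosin Tpm1 rose by 0.91 ± 0.15. Without day 2 replicate 3, 6 members rose. Tmsb4x, a thymosin that sequesters actin monomers, fell by 0.83 ± 0.12. Of 19 YAP targets and regulators 6 rose and 3 fell, among them Amot, an angiomotin that binds YAP, at 73.9, 78.04 and 58.9 CPM at day 2 and 428, 332 and 278 CPM at day 3 (2.30 ± 0.28), Ctgf (1.53 ± 0.30) and Cyr61 (1.36 ± 0.32). Amot reached 3462 ± 534 CPM at day 4.

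Among other signalling pathways, the Notch list held 7 genes that rose and 12 that fell of 29 tested. Hes1, a repressor induced by Notch, was at 13.4, 14.6 and 11.2 CPM at day 2 and 101.2, 82.5 and 72.4 CPM at day 3 (2.70 ± 0.17, adjusted p = 5.00e-10), the ligand Jag1 at 16.4, 17.9 and 15.96 CPM at day 2 and 94.3, 59.4 and 47.8 CPM at day 3 (2.01 ± 0.19) and the receptor Notch3 at 38.5, 27.8 and 34.04 CPM at day 2 and 91.2, 121 and 123.3 CPM at day 3 (1.74 ± 0.15). The ligand Dll1 was at 12.7, 10.5 and 12.4 CPM at day 2 and 2.83, 2.72 and 1.88 CPM at day 3 (-2.27 ± 0.23) and the regulator Dtx1 fell by 1.29 ± 0.13. In the retinoic acid list 8 rose and 5 fell of 23. Dhrs3, a retinal reductase, was at 1.10, 0.474 and 1.19 CPM at day 2 and 10.6, 8.57 and 9.29 CPM at day 3 (3.34 ± 0.26). Cyp26a1, which degrades retinoic acid, was at 4.17, 5.74 and 3.06 CPM at day 2 and 49.6, 20.1 and 9.02 CPM at day 3 (2.60 ± 0.50, and 1.74 (adjusted p = 0.00223) without day 3 replicate 1), and both binding proteins Crabp1 (-1.74 ± 0.17) and Crabp2 fell. In the Hedgehog list 5 rose and 5 fell of 14, and 3 of each without day 2 replicate 3. Ptch1, the receptor and a direct target of the pathway, was at 136, 120.1 and 139 CPM at day 2 and 41.4, 51.1 and 44.1 CPM at day 3 (-1.54 ± 0.12), and Gli1, the other usual target, fell by 1.54 ± 0.18 from a low level.

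Most called glycolytic genes fell. Of 24 glycolytic genes 10 fell and 1 rose (median -0.21). Slc2a1, the glucose transporter GLUT1, was at 412, 371 and 393 CPM at day 2 and 76.4, 82.8 and 81.7 CPM at day 3 (-2.29 ± 0.17, adjusted p = 1.12e-08). Pdk1, a pyruvate dehydrogenase kinase, was at 152, 176 and 198 CPM at day 2 and 65.8, 81.2 and 84.04 CPM at day 3 (-1.19 ± 0.14), but Ldha was not called (0.19 ± 0.09). Of 18 hypoxia targets 6 rose and 3 fell, and Ndrg1, a gene induced in differentiation and hypoxia, was at 2.59, 2.95 and 2.33 CPM at day 2 and 40.7, 40.7 and 27.3 CPM at day 3 (3.78 ± 0.24). Oxidative phosphorylation genes rose in 16 of 32, the other 16 not being called, with a median of 0.15. These rises were small and depended on the settings: with upper-quartile scaling 6 rose and 1 fell, and without day 3 replicate 1, 8 rose. Cycs, cytochrome c, showed the largest of them (0.46 ± 0.06).

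Of 24 cholesterol synthesis genes 9 rose and 1 fell, and 6 and 4 with upper-quartile scaling. Ebp, a sterol isomerase, was at 12.3, 13.8 and 10.1 CPM at day 2 and 52.5, 41.3 and 39.6 CPM at day 3 (1.88 ± 0.12), while Hmgcs1 (0.15 ± 0.08), a synthase early in the pathway, was not called. Of 24 fatty acid genes 11 rose and 4 fell, including Cpt1a, the gate of mitochondrial fatty acid oxidation, at 6.57, 9.38 and 8.24 CPM at day 2 and 26.1, 22.95 and 21.6 CPM at day 3 (1.55 ± 0.11), and Scd2 (0.83 ± 0.06). The fatty acid counts were 6 and 5 with upper-quartile scaling.

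Genes of the unfolded protein response, which the endoplasmic reticulum uses to expand its folding capacity, rose in 17 of 20 tested members and fell in 1 (median 0.40). The counts were 15 and 1 with upper-quartile scaling, and 14 and 1 without replicate 1. Hspa5, the chaperone BiP, was at 589, 645 and 633 CPM at day 2 and 1034, 912 and 893 CPM at day 3 (0.60 ± 0.06, adjusted p = 7.77e-09), and its partner Dnajb11 at 82.95, 92.7 and 82.95 CPM at day 2 and 155, 139.7 and 139 CPM at day 3 (0.75 ± 0.06, adjusted p = 8.38e-10). For both genes the day 3 libraries lay above the day 2 libraries. The ATF4 branch, in contrast to this list, held 8 genes that rose and 8 that fell of 24.

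Genes of oxidative stress and metal binding fell in 14 of 23 and rose in 1 (median -0.29). The metallothioneins Mt1, at 30.1, 30.5 and 31.7 CPM at day 2 and 4.25, 5.80 and 8.49 CPM at day 3 (-2.31 ± 0.18), and Mt2, at 4.61, 6.17 and 5.75 CPM at day 2 and 0.943, 0.799 and 0.983 CPM at day 3 (-2.58 ± 0.22), led this list. Lysosome and autophagy genes fell in 13 of 34 and rose in 2, by less (median -0.12). Of 20 heat shock genes 8 rose and 3 fell. Among those with at least 5 CPM the largest rise was that of Dnajb1 (0.38), and with upper-quartile scaling 5 rose and 4 fell.

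Genes of ribosome assembly and translation that were called mostly rose, by small amounts. Of 28 ribosome biogenesis genes 15 rose and the other 13 were not called (median 0.13), for example Polr1a, the large subunit of RNA polymerase I (0.34 ± 0.05), and Pes1 (0.34 ± 0.06). With upper-quartile scaling 7 rose and 3 fell. Among gene families taken by symbol, translation initiation factors rose in 27 of 55 and fell in 4, mitochondrial ribosomal proteins rose in 32 of 74 and fell in 2, proteasome subunits rose in 22 of 47 and fell in 3, and aminoacyl-tRNA synthetases rose in 14 of 34 and fell in 3. Their medians lay between 0.12 and 0.15. With upper-quartile scaling these 4 families had 12, 18, 14 and 8 members higher and 5, 3, 3 and 5 lower. Over all tested genes, with the main scaling, 21.4% were higher and 21.1% lower. Abundant genes were in general more often higher, 36.8% against 15.4% lower above 100 CPM and 33.0% against 16.2% at 20 to 100 CPM. The families were not compared with genes of like abundance. Cytoplasmic ribosomal proteins were called in 10 of 80 (7 higher, 3 lower), a lower share than the 42.4% over all genes. Potassium channels, whose symbols begin with Kcn, fell in 30 of 71 and rose in 9, and Klf and Sp zinc finger factors fell in 13 of 26 and rose in 3.

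Cell cycle genes moved in both directions. Of 34 genes of G1, S phase and replication 9 rose and 9 fell, or 4 and 7 without day 3 replicate 1, and of 30 genes of G2 and mitosis 8 rose and 3 fell, or 2 and 5 with upper-quartile scaling. Cyclins changed individually: Ccne2 was at 9.36, 9.75 and 9.07 CPM at day 2 and 22.9, 24.5 and 20.7 CPM at day 3 (1.27 ± 0.09) and Ccnd2 rose by 1.16 ± 0.32 (without day 3 replicate 1 0.91 (adjusted p = 0.057)), whereas Ccne1 fell by 0.31 ± 0.06. Mki67, a proliferation marker, was at 452, 499 and 469 CPM at day 2 and 545, 543 and 585 CPM at day 3 (0.24 ± 0.07). Of 27 p53 targets 5 rose and 9 fell, or 2 and 13 with upper-quartile scaling, and 4 fell without day 2 replicate 3. Among the risers was Cdkn1a, the inhibitor p21, at 67.2, 61.2 and 58.3 CPM at day 2 and 128, 112 and 116 CPM at day 3 (0.93 ± 0.19). Of 22 apoptosis genes 9 fell and 5 rose. Bmf, which promotes death of detached cells, was at 32.9, 32.1 and 30.3 CPM at day 2 and 10.1, 8.89 and 11.1 CPM at day 3 (-1.66 ± 0.16), and Bid (-0.59 ± 0.07), Bcl2l11 (-0.58 ± 0.09) and Bbc3 (-0.57 ± 0.09), of the same BH3 class, fell as well.

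Markers of other cells were followed because the cells had been grown on fibroblast feeders and because stem cell cultures can hold other lineages. Of 25 fibroblast markers 10 fell and 2 rose (median -1.06), and their summed level went from 181 to 212 CPM at day 2 to 116 to 124 CPM at day 3, after 2763 CPM at day 0. Mmp3 was at 15.2, 13.3 and 14.1 CPM at day 2 and 0.991, 1.38 and 1.03 CPM at day 3 (-3.66 ± 0.68), Col3a1 at 21.3, 17.1 and 17.7 CPM at day 2 and 1.56, 1.28 and 1.83 CPM at day 3 (-3.57 ± 0.55) and Col6a3 at 17.3, 10.2 and 14.6 CPM at day 2 and 2.59, 1.97 and 1.52 CPM at day 3 (-2.79 ± 0.57). The defining markers Col1a1, at 8.83, 7.27 and 8.39 CPM at day 2 and 4.06, 4.37 and 3.57 CPM at day 3 (-1.04 ± 0.54, adjusted p = 0.137), and Col1a2, at 11.2, 7.96 and 7.05 CPM at day 2 and 8.21, 6.60 and 7.42 CPM at day 3 (-0.24 ± 0.45), were not called, and Lox was at 0.528, 0.738 and 0.984 CPM at day 2 and 1.18, 0.639 and 0.715 CPM at day 3. How far remaining feeder cells contributed to the falls of Mmp3, Col3a1 and the other matrix genes was not tested. In bulk RNA, fewer cells of a type and less RNA per cell cannot be told apart.

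Of 25 extraembryonic endoderm genes 7 rose and 11 fell. The risers were Foxq1, Gata6, Sox17, Pdgfra, Dkk1, Lamb1 and Lamc1, which definitive endoderm or mesoderm also express, and the fallers included Lama1, Apoe, at 214, 225 and 221 CPM at day 2 and 58.6, 73.9 and 75.3 CPM at day 3 (-1.67 ± 0.12), and Lrp2, a scavenger receptor of visceral endoderm and neural epithelium, at 247, 171 and 219 CPM at day 2 and 42.4, 76.2 and 83.2 CPM at day 3 (-1.66 ± 0.23). Of the markers defining that lineage, Amn fell to a mean of 0.268 ± 0.109 CPM, and Sox7 (0.193 ± 0.124 CPM) and Hnf4a (0.0778 ± 0.0986 CPM) were near 0 at day 3. The summed level of the list was 892 to 1027 CPM at day 2 and 873 to 925 CPM at day 3. Of 19 trophoblast genes 2 rose, Eomes and Tfap2c, and 7 fell, and the defining markers Cdx2 (0.287 ± 0.0235 CPM at day 3), Elf5 (0.354 ± 0.318) and Gata3 (0.146 ± 0.169) were near 0. The summed level of that list, 270.3 to 313 CPM at day 2 and 643 to 841 CPM at day 3, includes Eomes, which alone reached 552, 492 and 412 CPM. Of 16 endothelial and blood genes 2 rose, Flt1, at 26.3, 22.7 and 18.7 CPM at day 2 and 121, 88.6 and 64.7 CPM at day 3 (2.02 ± 0.30), and Kdr (1.66 ± 0.59, and 1.05 (adjusted p = 0.226) without replicate 1), and 7 fell.

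Several of the induced genes had been expressed at day 0, were low at day 2 and returned at day 3. Tdgf1 was at 616 ± 65.96, 36.4 ± 5.19, 661 ± 151 and 522 ± 30.9 CPM (mean ± SD, n = 3) at days 0, 2, 3 and 4 in that order. Smad7 followed with 82.6 ± 10.9, 4.69 ± 1.19, 52.9 ± 6.48 and 46.5 ± 3.06 CPM, and Epha2 with 212 ± 26.1, 27.4 ± 2.75, 229.7 ± 16.9 and 131 ± 21.1 CPM. Fst and Wnt8a were highest at day 3, at 315 ± 35.7 and 87.7 ± 6.69 CPM, and stood at 32.3 ± 14.5 and 15.1 ± 5.98 CPM at day 4. Cer1 and Lhx1 went on upward, to 831 ± 30.4 and 1002 ± 156 CPM at day 4. The steps into and out of day 2 and day 3 share libraries, so these levels are a description.

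**Figure D5:**
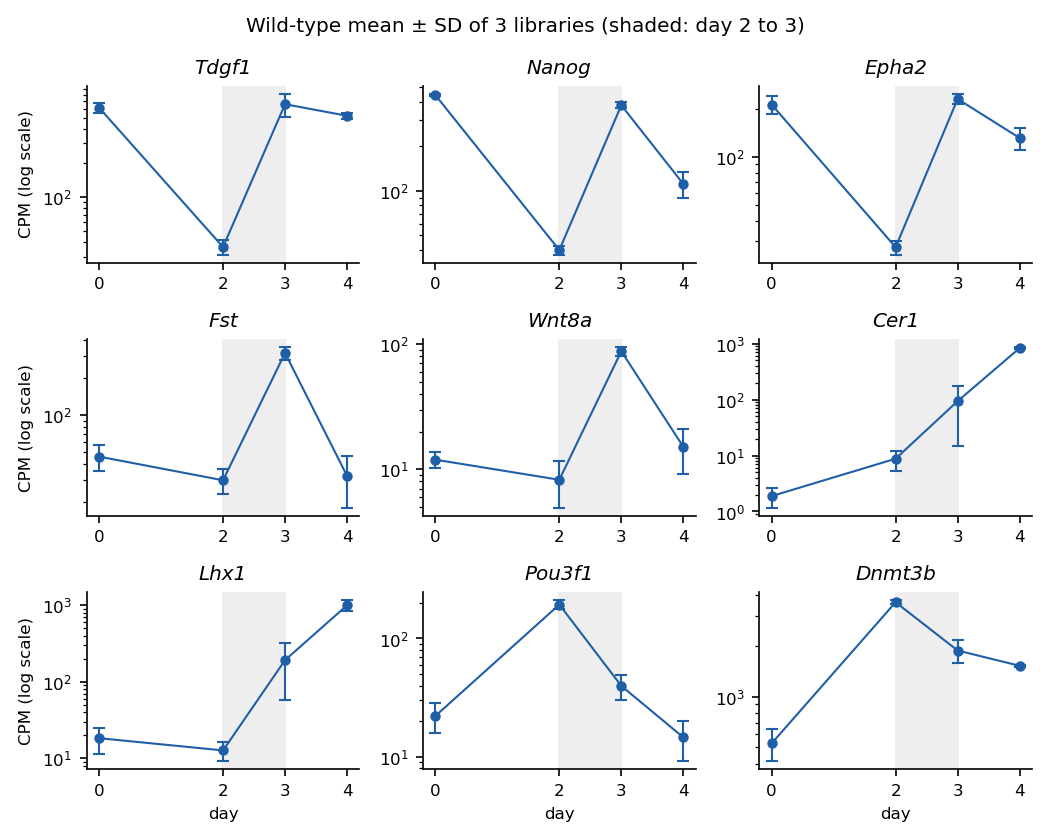
Mean CPM (vertical axis, log scale, with SD of n = 3 libraries) of 9 genes in wild-type cells at days 0, 2, 3 and 4 (horizontal axis, days). Tdgf1, Nanog and Epha2 dip at day 2 and return at day 3, Fst and Wnt8a peak at day 3, Cer1 and Lhx1 are highest at day 4, and Pou3f1 and Dnmt3b are highest at day 2.

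The same step in the Setd3 knock-out, which shares no library with it, called 4997 genes (29.1%), 2526 higher (14.7%) and 2471 lower (14.4%). Of the wild-type risers 1647 also rose in the knock-out, 44.9% of the wild-type and 65.2% of the knock-out list. Of the wild-type fallers 1652 also fell there, 45.8% and 66.9%. The difference between the steps was called for 1877 of all tested genes (10.9%). Among wild-type risers 624 had such a difference, the change being smaller or opposite in the knock-out for 566, and among wild-type fallers 876, for 847 of them. The genes were picked by their wild-type change, which by itself favours a smaller change in the other genotype, so these counts are a description.

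Of the 18 Nodal ligands, co-receptors and antagonists 5 had a called difference between the steps, and of the 21 receptors, SMADs and regulators 2. For Nodal, Pmepa1 and Smad7 it was not called. Nodal changed by 3.83 ± 0.18 in the knock-out and 3.63 ± 0.16 in the wild-type (difference 0.19 ± 0.24, adjusted p = 0.693), Pmepa1 by 4.93 ± 0.24 and 4.81 ± 0.23 (difference 0.11 ± 0.37, adjusted p = 0.899), and Smad7 by 3.54 ± 0.14 and 3.49 ± 0.15 (difference 0.06 ± 0.21, adjusted p = 0.919). Foxa2 changed by 4.34 ± 0.63 against 4.34 ± 0.29, and the difference was not called (adjusted p = 1). These p-values do not show equality. The differences of Nodal, Pmepa1 and Smad7 carry the errors given, and the error of the Foxa2 difference is not given here. The step of Foxa2 had a wider error in the knock-out (0.63) than in the wild-type (0.29). Among genes whose step did differ, Eomes rose by 2.12 ± 0.26 in the knock-out (difference -2.80 ± 0.35, adjusted p = 4.87e-05), Tdgf1 by 2.12 ± 0.18 (difference -2.06 ± 0.25, adjusted p = 3.77e-05), Nanog by 1.58 ± 0.09 (difference -1.67 ± 0.13, adjusted p = 7.10e-08), and Axin2 showed 0.27 ± 0.18 (adjusted p = 0.286), with a difference of -2.24 ± 0.25 (adjusted p = 7.73e-06). Fst rose by 1.22 ± 0.36 (difference -2.18 ± 0.49, adjusted p = 0.00781), and Tgfbr3 showed 0.28 ± 0.46 (adjusted p = 0.706, difference -3.19 ± 0.59, adjusted p = 0.00169).

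Several genes that fell in the wild-type had a smaller change in the knock-out. Of the 25 formative and primed genes, 12 differed in their step. Pou3f1 changed by -0.24 ± 0.20 in the knock-out (difference 2.04 ± 0.29, adjusted p = 1.49e-04), Sox3 by 0.06 ± 0.16 (difference 1.64 ± 0.23, adjusted p = 7.18e-05) and Fgf4 by -0.40 ± 0.18 (difference 1.99 ± 0.27, adjusted p = 7.06e-05). Of the 31 tight junction, desmosome and keratin genes, 12 differed, for example Cldn4 (difference 1.57 ± 0.32, adjusted p = 0.00317). In the unfolded protein response and actin lists the step differed for 0 of 20 and 0 of 28 genes, and in the knock-out 16 and 15 of their members rose. At an unadjusted p under 0.05 the edgeR test gave 1 and 10 of these members, and DESeq2's Wald test called 0 and 3. Snai1 rose in the wild-type and fell in the knock-out (-1.71 ± 0.31, adjusted p = 1.53e-04, difference -3.60 ± 0.38, adjusted p = 9.03e-07). Sox17, Gata6 and Lhx1 were near 0 in the knock-out, at 0.117 ± 0.104, 0.101 ± 0.0497 and 0.235 ± 0.145 CPM (mean ± SD, n = 3) at day 2 and 0.221 ± 0.0476, 0.130 ± 0.110 and 0.399 ± 0.166 CPM at day 3. They changed by 0.87 ± 2.48, 0.37 ± 2.83 and 0.74 ± 2.29 there, and at such counts the differences from the wild-type were not called (adjusted p = 0.747, adjusted p = 0.623 and adjusted p = 0.554), with wide errors (-2.07 ± 3.04, -3.41 ± 3.53 and -3.18 ± 2.84).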

How the data were processed

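RNA sequencing of CJ9 mouse embryonic stem cells, wild-type and Setd3 knock-out, gave 24 libraries in 8 groups of 3. The authors deposited raw read counts per gene for all libraries. Trimmomatic, HISAT2 and the build GRCm38.p6 are named per the submitters' processing notes. No source used here gives the counting program, its strand setting or the annotation. Of 55401 entries, 2090 had no gene name, and 1830 of these were filled from GENCODE M21 by identifier.

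Genes were kept by edgeR's filterByExpr, which left 17144 of the 29207 with any count. The counts of all 24 libraries were scaled by TMM and fitted together by edgeR's quasi-likelihood model (edgeR 4.0.16, R 4.3.3), 1 coefficient per group, with Benjamini-Hochberg adjustment over all tested genes and a threshold of 0.05. The model for the knock-out and for the difference of the steps was the same. On simulated counts for the wild-type comparison over 17144 genes, the share recovered was 62.7% at a fold of 1.5 (67 genes), 86.6% at 2 (67 genes) and 100% at 4 (66 genes), beside 10 false calls among 16944 unchanged genes. The changed genes were drawn only from those with a mean of at least 1 CPM. The 6 libraries held 18531390 to 22540026 counts. The labels do not say that replicates came from separate cultures, so p-values measure only the spread between these samples, which may be technical.

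By rule, the genes named included the 15 largest log2 fold changes in each direction. These were taken among called genes whose days did not overlap and reached a mean of 10 CPM. The 10 largest gains and losses in CPM and the 5 genes with the widest day 3 spread were also taken. Each list gave up to 4 called members in each direction among those reaching 5 CPM, and up to 3 abundant members not called. Members of the Nodal, feeder, extraembryonic, trophoblast and germline lists could all be named, and only some of them are given. Axin2 and several cell type markers stand outside the rule and were chosen after their values were seen. The 63 lists hold 1462 genes, of which 1337 were tested and 735 called, and 141 genes are in more than 1 list. Members, lists and tests were chosen with earlier results of these data known. Promoter windows are RefSeq's on GRCm38.p6. Alternatives were other scalings, filters, sets of libraries, a replicate block, DESeq2 1.42.0, a test against a 1.5-fold change, and each library left out. A few genes that the rule takes are not reported here.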

Additional observations from a re-analysis of the deposited data

Results flagged for a closer look

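In 7 genes named in the text the step passed the test in both genotypes and went in opposite directions, and the test of the difference between the steps passed as well. Of these, 5 rose in the wild-type and fell in the knock-out. Upp1 changed by 2.76 ± 0.39 in the wild-type and -2.95 ± 0.48 in the knock-out, a difference of -5.71 ± 0.62 (adjusted p = 1.19e-05). Pdgfra changed by 2.63 ± 0.49 and -2.48 ± 0.78 (difference -5.12 ± 0.91, adjusted p = 0.00117), and Ntn1 by 2.75 ± 0.32 and -2.25 ± 0.50 (difference -5.004 ± 0.58, adjusted p = 2.04e-05). In the wild-type all 3 were highest in day 3 replicate 1. The difference was -4.90 ± 0.55 for Tfap2c (adjusted p = 1.02e-05) and -3.60 ± 0.38 for Snai1 (adjusted p = 9.03e-07). The other 2 fell in the wild-type and rose in the knock-out, with a difference of 1.73 ± 0.30 for Cpm (adjusted p = 3.10e-04) and 1.73 ± 0.19 for Map2 (adjusted p = 1.21e-06). All 7 adjusted p-values are of edgeR's quasi-likelihood test.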

How the results depend on the processing

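Over the alternatives run, no call of a named gene came with the opposite sign. Of 268 named genes, 237 were called, and 196 of the 268 stayed on their side of the threshold throughout. The 7275 calls became 1944 (589 higher, 1355 lower) when tested against a 1.5-fold change, and 289 of the 735 called list genes were then left, since that test asks for more than any change. Called higher were 2415 genes with upper-quartile factors, the cause of which was not tested, and 2433 with at least 10 CPM required in 3 libraries, against 3665. That filter left 325 genes at least 2-fold higher and 569 at least 2-fold lower, as it tested fewer genes. The knock-out step minus the wild-type step was called higher for 1727 genes when only the groups compared were fitted, against 1134, and the cause was not tested. For the wild-type step, a fit of only the 6 libraries compared called 6520 genes. It ended the call of 11 of the 237 named genes called. Among them were Sox17 (2.92), Cxcr4 (1.85), Dkk1 (2.26), Cyp26a1 (2.58) and Prdm1 (1.15).

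With each library of the groups compared left out in turn, 6021 to 6668 genes were called (2962 to 3378 higher and 2969 to 3290 lower), 593 to 716 at least 2-fold higher and 1471 to 1688 at least 2-fold lower, and 629 to 686 list genes. The knock-out step had 3858 to 4275 calls and the difference of the steps 1303 to 1982. Leaving out 1 library ended the call of 14 named genes, whose log2 fold changes in those fits were 0.91 for Ccnd2, -1.66 to -1.35 for Cdx2, 0.89 for Cxcr4, 0.11 to 0.12 for Eef2, 0.60 to 0.69 for Egr1, -0.21 to -0.17 for Epcam, 0.74 to 0.87 for Foxj1, -0.18 to -0.11 for Hsp90aa1, 1.05 to 1.84 for Kdr, 1.04 to 1.38 for Nanos3, 0.37 for Pou5f1, -0.68 to -0.48 for Sfrp1, -0.86 to -0.58 for Tbx6 and -0.47 to -0.45 for Xlr4a. List counts are small numbers, and 31 of the 126 moved by more than 1.5 times in this way, among them 8 to 17 risers in oxidative phosphorylation, 6 to 9 in Wnt receptors and 1 to 4 fallers in the posterior streak.

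Same-numbered libraries of the 2 days did not all deviate together over the more abundant of the tested genes. The correlations were -0.02, -0.213 and 0.262 for numbers 1, 2 and 3. The numbers were therefore not treated as pairs, although single genes such as T and Eomes were lowest in replicate 3 on both days. With the replicate block 7307 genes were called, 3681 higher and 3626 lower. DESeq2's Wald test called 7091. On counts simulated at these library sizes, with 3 libraries a group, small changes were in part missed, and 62.7% of 1.5-fold changes were recovered. The simulation changed a far smaller share of genes than the 42.4% called here, and none of low abundance. Its shares therefore do not give the recovery in these data. Depth was not varied.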

Other observations

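Lists of other cellular functions changed to differing degrees between day 2 and day 3 of the wild-type. The share called exceeded the 42.4% of all tested genes in the immediate early, MHC and interferon, and splicing and microRNA lists. It was below that share in the other lists given here. Of 26 immediate early genes, which respond quickly to growth factors, 6 rose and 6 fell. Egr1, a zinc finger factor of ERK signalling, was at 15.3, 7.96 and 8.13 CPM at day 2 and 19.5, 17.6 and 16.3 CPM at day 3 (0.76 ± 0.23), its call ending in 3 of the 6 fits that left out 1 library, and Ier5 was at 41.3, 42.2 and 44.4 CPM at day 2 and 21.5, 18.96 and 20.5 CPM at day 3 (-1.07 ± 0.22). Of 10 inhibitors of cyclin-dependent kinases and retinoblastoma proteins 2 rose and 2 fell, the risers being Cdkn1a and Cdkn2d (0.46 ± 0.13). Of 40 ciliary genes 5 rose and 5 fell, or 3 and 9 with upper-quartile scaling, and 1 rose without day 3 replicate 2. Foxj1, the factor that switches on motile cilia and is expressed at the embryonic node, was at 22.7, 18.2 and 10.7 CPM at day 2 and 39.1, 40.2 and 23.1 CPM at day 3 (0.98 ± 0.32), its call also ending in 3 of those fits, and Rfx2 was at 6.91, 8.01 and 8.96 CPM at day 2 and 4.10, 4.15 and 4.56 CPM at day 3 (-0.89 ± 0.16). Of 15 genes of the state that resembles the 2-cell embryo 5 fell, all from low levels. Most of them belong to families of close copies, so their counts are uncertain.

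Of 27 genes of MHC class I and the interferon response 6 rose and 6 fell. Irf1, an interferon regulatory factor, was at 13.8, 12.6 and 14.7 CPM at day 2 and 33.5, 39.4 and 37.6 CPM at day 3 (1.42 ± 0.13) and Tapbp, which loads peptides on MHC class I, at 11.4, 10.01 and 11.97 CPM at day 2 and 28.8, 32.7 and 25.02 CPM at day 3 (1.37 ± 0.14). Ifitm1, a membrane protein also known from early germ cells, was at 25.4, 38.6 and 40.6 CPM at day 2 and 12.2, 8.84 and 5.99 CPM at day 3 (-1.95 ± 0.20), and its relative Ifitm3 at 24.1, 32.9 and 43.99 CPM at day 2 and 16.6, 16.7 and 14.2 CPM at day 3 (-1.09 ± 0.21). The day 3 values of both genes lay below all of their day 2 values. Of 35 genes of splicing and the microRNA pathway 8 rose and 11 fell, or 5 and 15 with upper-quartile scaling. Ago1, an Argonaute protein, was at 96.1, 84.9 and 94.2 CPM at day 2 and 244, 259 and 236 CPM at day 3 (1.42 ± 0.05) and Elavl3, a neuronal RNA-binding protein, at 65.2, 52.3 and 62.6 CPM at day 2 and 8.25, 14.2 and 18.3 CPM at day 3 (-2.14 ± 0.20). Of 15 genes of neural crest and surface ectoderm 3 fell, led by Grhl1 (-1.34 ± 0.20), and 1 rose, Tfap2c.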
